A study of Mus musculus with 27 samples.

Results

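Fos, Fosb, Fosl1, Fosl2, Jun, Junb, Jund, Egr1, Egr2 and Atf3 are transcription factor genes of the AP-1 and Egr families, most of which belong to the immediate early genes. They were taken by their symbols from a table of 40129 genes in mouse retina, and all 10 were measured and passed the filter on low values together with 27137 genes in total. The study compared the transcriptomes of human and mouse retinal neovascularization, and only its mouse data are used here. The mouse model was oxygen-induced retinopathy (OIR), in which pups breathe 75% oxygen from postnatal day (p) 7 to p12 and then return to room air. The retina is hypoxic around p14, before new vessels grow, and carries retinal neovascularization around p17. All mice were wild type (C57BL/6 in the labels, C57BL/6J in the methods of the study), the retinas of 1 eye or of both eyes pooled made 1 library per mouse after perfusion with PBS, and untreated mice of the same age (nOIR) served as controls. The groups held 6 OIR p14, 8 OIR p17, 6 nOIR p17 and 7 nOIR p14 mice. Mouse S4 of nOIR p14 was left out because of lens genes, as its original analysis had done. This left 6 nOIR p14 mice and 26 mice in all. The mice came from 2 to 4 litters per group, and the litter of each mouse is not in the labels, so that all tests take mice as independent. Between 17029536 reads (OIR p17 mouse S1) and 33593428 reads were recovered per mouse, with a median of 30024568.

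AP-1 is a dimer of basic leucine zipper proteins, in which a Fos protein needs a Jun partner while Jun proteins can also pair with each other. Fos, Fosb and Egr1 are transcribed within minutes of a stimulus from factors already present in the cell, namely serum response factor at CArG boxes and CREB at cyclic AMP response elements, and their mRNA decays fast. Egr proteins are zinc finger factors that bind GC-rich sites and induce their own co-repressors of the Nab family. In the retina, Fos and Egr1 are known for responses to light and neuronal activity, and AP-1 members and Atf3 for responses of glia and ganglion cells to injury.

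Promoter sequences are given first to show which of the genes searched hold elements of immediate early transcription close to a start site. RefSeq (GRCm38.p6) windows from 250 bases before to 50 bases after a start site were searched on both strands in 8 of the 10 genes. Fosl1 and Egr1 were not analysed here, and elements further upstream lay outside the search. The letters searched were TGACGT (core of the cyclic AMP response element), TGANTCA (AP-1 site), GCGNGGGCG (Egr site) and the CArG box. Of all 32851 windows, 7.51% held the first, 7.81% the second, 5.55% the third and 1.63% a CArG box. The core TGACGT, or its reverse complement ACGTCA, was found in Fos at position -66 from the start site, in Egr2 at -56 and in Atf3 at -8. A CArG box stood in Egr2 at -72, in the same window as the core. The letters GCGGGGGCG were found in Fosb at -50 and in Fosl2 at -79, and no match in Jun, Junb or Jund. Egr2 has 5 windows, of which 4 hold a CArG box, and 1 that holds both elements is shown. The 250 bases before the start site are given here for the 3 genes with the core and for Junb, the gene of the family with the smallest adjusted p at p17, 5′ to 3′ on the strand of the gene, with matches in capitals. A match is a description of the letters and not a measured binding site.
Fos (chr12:85473640-85473889, plus strand): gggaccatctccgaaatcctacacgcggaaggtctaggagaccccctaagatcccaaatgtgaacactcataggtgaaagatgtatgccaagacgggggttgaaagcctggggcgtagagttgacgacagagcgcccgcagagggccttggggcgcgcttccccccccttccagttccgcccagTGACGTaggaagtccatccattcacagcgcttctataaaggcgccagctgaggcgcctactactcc
Egr2 (chr10:67537619-67537868, plus strand): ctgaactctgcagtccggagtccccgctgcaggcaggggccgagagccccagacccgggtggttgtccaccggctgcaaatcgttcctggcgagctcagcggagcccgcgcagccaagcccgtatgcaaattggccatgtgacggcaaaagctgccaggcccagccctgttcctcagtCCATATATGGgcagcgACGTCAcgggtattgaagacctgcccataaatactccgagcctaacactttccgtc
Atf3 (chr1:191183334-191183583, minus strand): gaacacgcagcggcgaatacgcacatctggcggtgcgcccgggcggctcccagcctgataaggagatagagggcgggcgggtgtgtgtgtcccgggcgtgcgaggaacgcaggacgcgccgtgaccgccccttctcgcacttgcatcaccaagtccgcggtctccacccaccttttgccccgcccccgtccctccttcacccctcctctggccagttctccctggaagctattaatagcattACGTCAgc
Junb (chr8:84978749-84978998, minus strand): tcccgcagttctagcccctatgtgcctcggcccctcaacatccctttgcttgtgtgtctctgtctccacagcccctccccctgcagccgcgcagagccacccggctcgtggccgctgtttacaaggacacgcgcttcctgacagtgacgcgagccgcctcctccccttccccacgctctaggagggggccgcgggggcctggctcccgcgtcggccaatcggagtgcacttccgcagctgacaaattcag

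At p14, 7 of the 10 genes were upregulated in OIR mice compared with nOIR mice, and at p17 9 of the 10 were. Both counts include Fosl1, which passed the filter on low values through the OIR mice alone, and were 6 of 9 and 8 of 9 without it. The smallest fold change among the genes called was that of Fos at p14 and of Jun at p17. Over the 10 genes, the median effect of OIR on the log2 scale was 1.32 (p14) and 2.16 (p17), or 1.15 and 1.92 without Fosl1, beside 0.017 and -0.023 over all genes tested. Limma, with p-values adjusted by Benjamini-Hochberg, called 3.18% of the genes tested higher at p14 and 7.39% at p17. Jun, Jund and Egr1 were not called at p14, and Jund was not called at p17. No gene of the family was called lower at either age by limma, by edgeR or by DESeq2, and none was lower at an unadjusted p under 0.05, while 2.91% of the genes tested were called lower at p14 and 5.12% at p17. When each mouse was rescaled to the same total, the calls over all genes moved from 862 higher and 790 lower to 1020 and 609 at p14, and from 2005 and 1390 to 2407 and 964 at p17.

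Under the study's threshold for DEG, which adds a log2 fold change above 2, Fosb, Fosl1, Egr2 and Atf3 were DEG at p14 and the same 4 and Junb at p17. Without Fosl1 these were 3 of 9 and 4 of 9 genes. Atf3 lay just inside at p14 with 2.01, and Fosl2 just outside at p17 with 1.92. Fosb at p14 had 1.83 without nOIR p14 mouse S1 and 1.70 without OIR p14 mouse S5, both under 2. In the limma fit without OIR p14 S1 and OIR p17 S1, neither Fosb (adjusted p = 0.0626) nor Atf3 (1.94) was a DEG at p14. Of all genes tested, 0.744% were upregulated DEG at p14 and 1.9% at p17, and 0.14% and 0.173% were downregulated DEG. Every OIR mouse lay above every nOIR mouse in 5 of the 10 genes at p14 (Fosl1, Fosl2, Junb, Egr2 and Atf3) and in 9 of the 10 at p17 (all but Jund). This held for 1.91% of the genes tested at p14 and 3.9% at p17. For such a gene, the two-sided exact permutation test gives the smallest p it can, 0.00216 for 6 against 6 mice and 0.000666 for 6 against 8. It was run for all 10 genes at both ages, 20 tests in all. In whole retina, more cells of a type and more RNA per cell cannot be told apart.

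**Figure D1:**
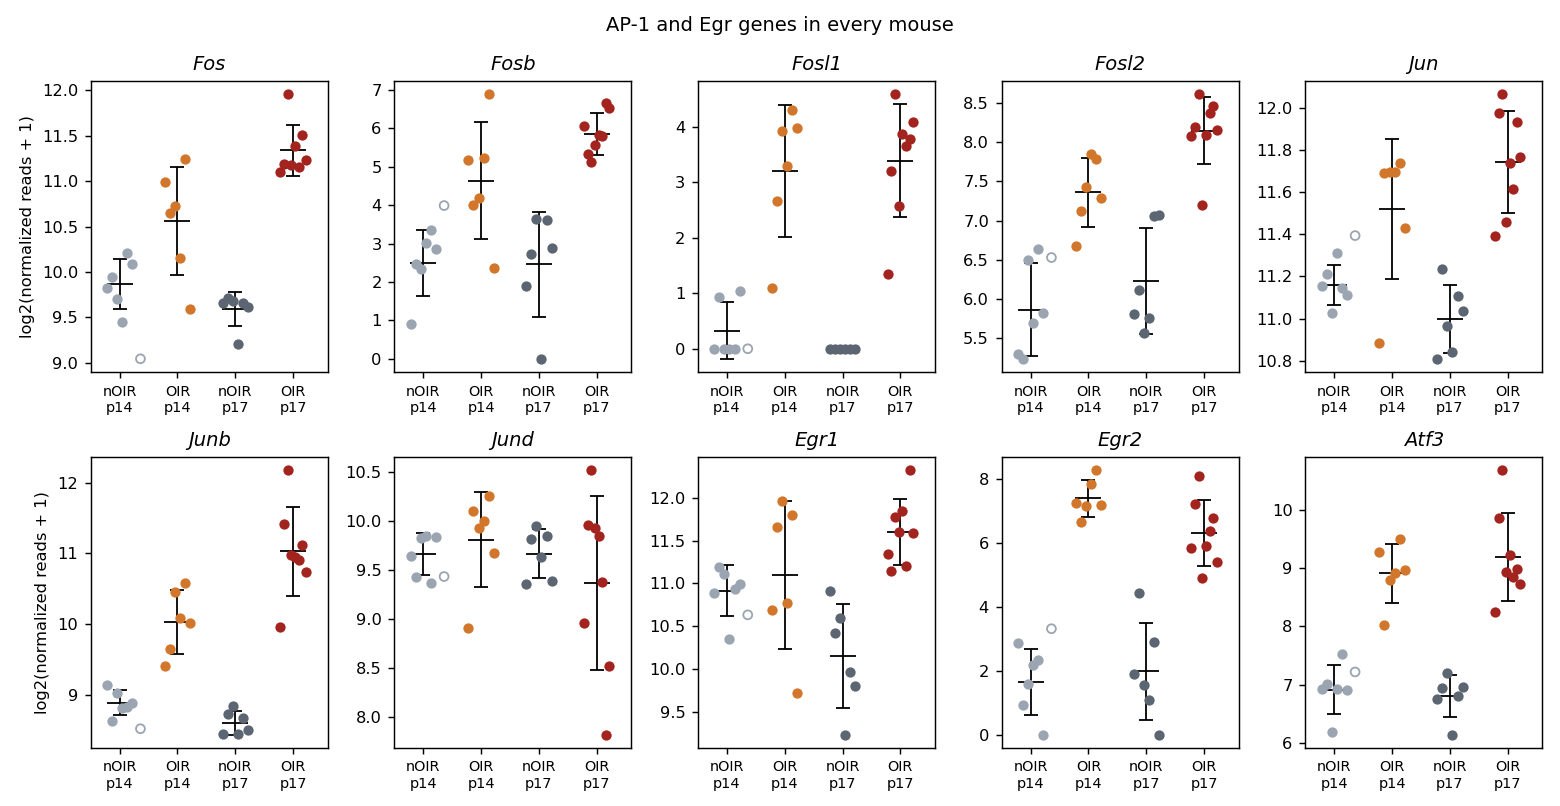
Each panel plots 1 gene as log2(normalized reads + 1) in every mouse by group. Filled points are the 26 mice of the fit, the open circle is nOIR p14 mouse S4, which was left out, and the black marks are the group mean and SD. At p17 the OIR mice lie above all nOIR mice in every panel but that of Jund.

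The levels of the genes differ by orders of magnitude, as seen when normalized reads are divided by the exon length of the gene (GENCODE M21). This length includes bases shared with genes on the opposite strand, 1163 of 2033 in Fosl1 and 877 of 1668 in Jund. In Jun these are 232 of 3189 and in Junb 173 of 2301. Default counting leaves out reads that overlap another gene. The levels of these genes can therefore be too low, and the order of Jun and Jund is not settled. By this measure, Jun was highest in nOIR p14 retina with 719 ± 48.3 normalized reads per kilobase (SD, n = 6). Jund followed with 489 ± 70.8, Egr1 with 437 ± 80.5 and Fos with 403 ± 75.1. The ranges of these last 3 genes over the mice overlapped, so that their order is within the spread. Junb followed with 206 ± 25.9 and Atf3 with 57.3 ± 16.3 normalized reads per kilobase. Fosl2 was far lower with 6.35 ± 2.72, and Fosb (0.85 ± 0.45), Egr2 (0.82 ± 0.67) and Fosl1 (0.16 ± 0.25) were lowest, with ranges that overlapped among these 3 genes. In OIR p14 retina, Jun (941 ± 187), Fos (685 ± 252), Jund (561 ± 156), Egr1 (558 ± 279) and Junb (473 ± 143) overlapped with their neighbours, followed by Atf3 (235 ± 74.5) and then, without overlap, by Egr2 (52.6 ± 22.6). Fosl2 (17.5 ± 5.08), Fosb (6.01 ± 6.56) and Fosl1 (5.18 ± 3.25) came last. In nOIR p17 retina the order was as in nOIR p14 retina down to Fosl2, except that Fos (330 ± 39.2) and Egr1 (273 ± 108) changed places within overlapping ranges. In OIR p17 retina, Fos stood first with 1121 ± 250.3 normalized reads per kilobase (SD, n = 8), next to Jun with 1089 ± 181 and Junb with 987 ± 467, and the ranges of these 3 genes overlapped. Egr1 followed with 717 ± 207, Jund with 458 ± 243 and Atf3 with 312 ± 203. Fosl2 (30.2 ± 7.53), Egr2 (29.2 ± 23.3), Fosb (9.72 ± 3.80) and Fosl1 (5.65 ± 3.29) came last. Each gene overlapped with its neighbours in this order except Atf3 and Fosl2, which were apart. By this measure, Junb thus moved from rank 5 in both nOIR groups to rank 3 in OIR p17, and Jund from rank 2 to rank 5.

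Among the Fos family, Fos, the partner of Jun in the classical AP-1 dimer, ranged from 697 to 1186 normalized reads in nOIR p14 mice (median 943) and from 774 to 2417 in OIR p14 mice (median 1649.7). In 4 of the 6 OIR p14 mice it lay above every nOIR mouse, and OIR p14 mice S6 and S4 lay within the range of the controls at 774 and 1135. Fos rose by 0.69 at p14, a log2 value like all changes given here (standard error 0.19, adjusted p = 0.0268). At p17 the groups were apart, with 591 to 839 normalized reads in nOIR mice (median 808) and 2201 to 3967 in OIR mice (median 2368). Fos thus rose by 1.75 at p17 (standard error 0.18, adjusted p = 1.93e-08), a fold of 3.36 on the log2(value + 1) scale. The call for Fos at p14 rests on single mice, since the adjusted p rose to 0.0588 and 0.0802 without nOIR p14 mice S3 and S5, and to 0.0757, 0.0559 and 0.0908 without OIR p14 mice S1, S3 and S5. It was 0.0819 in a fit on the compared groups only, and 14 alternatives gave between 0.0026 and 0.0819.

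Fosb, which is induced with Fos and whose products last longer, was near 0 in controls and present in OIR mice. It ranged from 0.89 to 9.16 normalized reads in nOIR p14 mice and from 4.12 to 117 in OIR p14 mice (median 26.2), of which 5 of 6 lay above every control. At p17, nOIR mice had 0 to 11.5 normalized reads and OIR mice 33.6 to 99.7 (median 55.0). Fosb rose by 2.15 at p14 (standard error 0.60, adjusted p = 0.0261) and by 3.40 at p17 (standard error 0.56, adjusted p = 4.47e-05) on the log2 scale. At p14 the adjusted p was 0.106 with a pseudocount of 0.1 and 0.0542 in a fit on the compared groups only, within 6.36e-05 to 0.106 over 14 alternatives. It was 0.0732 without nOIR p14 mouse S1, and 0.0584, 0.0585 and 0.0906 without OIR p14 mice S1, S4 and S5. The fitted value of Fosb ranged from 1.29 to 2.82 at p14 and from 2.11 to 4.10 at p17 over the alternatives.

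Fosl1, which encodes Fra-1, a Fos protein without the C-terminal activation domain of Fos, was close to absent from control retina. Only 2 reads were counted over the 6 nOIR p14 mice and 66 over the 6 OIR p14 mice, a ratio of 34.0 per unit of depth (95% counting interval 9.1 to 286.8). At p17, the 6 nOIR mice had 0 reads in total and the 8 OIR mice 100 reads, between 1 and 24 per mouse. Against the limit of 3 reads over the group that a count of 0 allows (0.503 normalized reads), the pooled level of OIR p17 mice was at least 23.9-fold higher. With the counting error of both groups, the lower 95% limit of the ratio was 19.1. Fosl1 passed the filter on low values only through the OIR mice (group means of 0.33 and 0 normalized reads in nOIR mice and 10.53 and 11.48 in OIR mice), so that its calls are no support. OIR p14 mouse S1 and nOIR p14 mice S2 and S7 had 1 read each, so that only the scaling of each mouse set S1 above these controls. Without Fosl1, the OIR mice lay above all controls in 4 of 9 genes at p14 and 8 of 9 at p17. The fitted fold changes of Fosl1 depend on the pseudocount. The exons of Fosl1 overlap those of Ccdc85b on the opposite strand by 1163 bases in GENCODE M21. Counting by default settings does not use the strand and assigns a read that overlaps exons of another gene to neither gene. Reads of the shared stretch would thus be missing from the counts of Fosl1, which can make its level too low.

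Fosl2 encodes Fra-2, the other Fos protein of this kind. It ranged from 36.6 to 98.7 normalized reads in nOIR p14 mice (median 53.1) and from 101 to 230 in OIR p14 mice (median 164). At p17 the values were 46.1 to 134 in nOIR mice (median 61.5) and 146 to 391 in OIR mice (median 288). The groups did not overlap at either age, although the lowest OIR mice lay close to the highest controls. Fosl2 rose by 1.50 at p14 (standard error 0.29, adjusted p = 0.00113) and by 1.92 at p17 (standard error 0.27, adjusted p = 5.00e-06).

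Of the 3 Jun genes, limma called Junb at both ages, Jun at p17 and Jund at neither. Jun, the Jun protein that the stress kinase JNK phosphorylates, ranged from 2087 to 2544 normalized reads in nOIR p14 mice (median 2273) and from 1887 to 3422 in OIR p14 mice (median 3312). OIR p14 mice S2 to S6 lay above every control and mouse S1 below every control. With S1 included the effect was 0.36 (standard error 0.13, adjusted p = 0.0969), and without it 0.49 with adjusted p = 0.00403, while 14 alternatives gave adjusted p from 0.0018 to 0.143. Jun was called at p14 by DESeq2 (0.39, adjusted p = 0.0381) and with each mouse rescaled to the same total (0.41, adjusted p = 0.049). At p17, nOIR mice had 1793 to 2408 normalized reads (median 2048) and OIR mice 2685 to 4288 (median 3452). All 8 OIR mice lay above all 6 controls, and Jun rose by 0.75 (standard error 0.12, adjusted p = 2.78e-05), the smallest change of a gene called in this family at p17.

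Junb, which pairs with Fos proteins but activates weakly and can oppose Jun, had the highest fold change of the Jun genes at both ages. In nOIR p14 mice it ranged from 394 to 563 normalized reads (median 461) and in OIR p14 mice from 676 to 1525 (median 1061). At p17 it ranged from 345 to 455 in nOIR mice (median 383) and from 994 to 4643 in OIR mice (median 1987). No OIR mouse overlapped with a control, and the lowest OIR mouse was S1 at both ages. Junb rose by 1.15 at p14 (standard error 0.23, adjusted p = 0.00133) and by 2.43 at p17 (standard error 0.21, adjusted p = 8.94e-10).

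Jund, the Jun gene known to be transcribed steadily in resting cells, was not called at either age. It ranged from 661 to 923 normalized reads in nOIR p14 mice (median 855) and from 479 to 1218 in OIR p14 mice (median 999). At p17, nOIR mice had 654 to 988 (median 846) and OIR mice 226 to 1468 (median 792). The OIR p17 mice thus spread far beyond the controls on both sides, with S7 and S8 lowest at 226 and 366 and S3 highest at 1468. Its effect on the log2 scale was 0.15 at p14 (standard error 0.30, adjusted p = 0.885) and -0.30 at p17 (standard error 0.28, adjusted p = 0.593).

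Atf3, a stress-induced relative of the AP-1 proteins that pairs with Jun proteins or with itself, ranged from 71.8 to 182 normalized reads in nOIR p14 mice (median 120.4) and from 259.8 to 729.5 in OIR p14 mice (median 492). At p17 the controls had 69.5 to 146 (median 116) and the OIR mice 305 to 1657 (median 499.9). The groups were apart at both ages, and the medians of the OIR groups were close to each other. Atf3 rose by 2.01 at p14 (standard error 0.29, adjusted p = 3.43e-05) and by 2.40 at p17 (standard error 0.28, adjusted p = 1.49e-07). OIR p17 mouse S3 had 1657 normalized reads and the next mouse, S2, had 929.

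Of the Egr genes, Egr2 was called at both ages and Egr1 at p17. Egr1, the abundant member that responds to light and growth factors, ranged from 1306 to 2347 normalized reads in nOIR p14 mice (median 1991) and from 846 to 3979 in OIR p14 mice (median 2487). OIR p14 mice S2, S3 and S5 lay above every control, mouse S6 lay below every control, and S1 and S4 lay among them. The effect of OIR at p14 was 0.19 (standard error 0.29, adjusted p = 0.841). At p17, nOIR mice had 602 to 1932 normalized reads (median 1183) and OIR mice 2268 to 5132 (median 3094). Egr1 rose by 1.45 at p17 (standard error 0.27, adjusted p = 0.000287), and the lowest OIR mouse lay above the highest control.

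Egr2, known for its part in hindbrain segmentation and in myelination by Schwann cells, was almost silent in control retina. In nOIR p14 mice it ranged from 0 to 6.22 normalized reads (median 2.76), and in OIR p14 mice from 98.8 to 309.8 (median 147). At p17, nOIR mice had 0 to 20.4 normalized reads (median 2.31), with mouse S2 highest, and OIR mice 28.8 to 271 (median 70.8). The lowest OIR mouse at p14 had 98.8 normalized reads, above 5 of the 8 OIR p17 mice. Egr2 rose by 5.74 at p14 (standard error 0.59, adjusted p = 1.25e-07), or 53.4-fold on the log2(value + 1) scale, and by 4.34 at p17 (standard error 0.55, adjusted p = 7.83e-07), or 20.2-fold. Since the controls are so low, the fitted value depends on the pseudocount and ranged from 3.81 to 6.65 at p14 and from 2.66 to 5.20 at p17 over the alternatives.

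**Figure D2:**
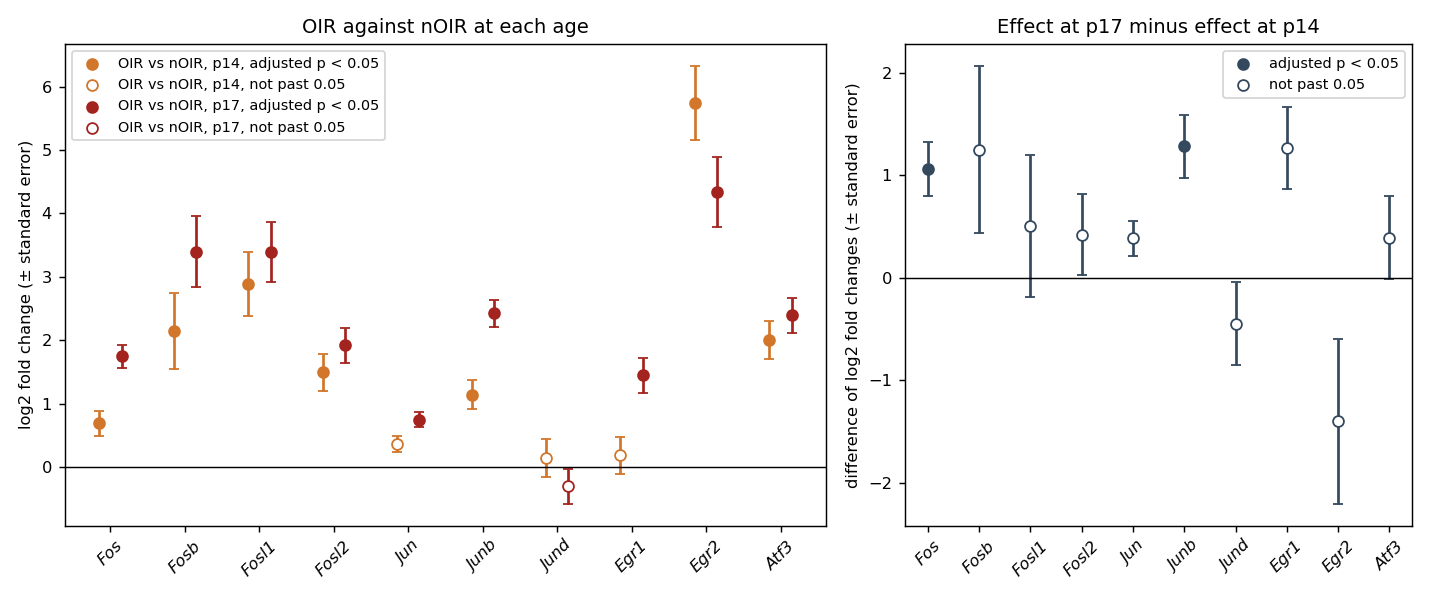
The left panel plots the log2 fold change of OIR against nOIR mice at p14 (orange) and p17 (red) and the right panel the difference of both, each with its standard error. Filled points passed an adjusted p of 0.05, which 7 genes did at p14, 9 at p17, and Fos and Junb in the difference.

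Whether the OIR effect differed between the hypoxic and the neovascular phase was tested as the difference of both log2 fold changes in the same fit. For Fos the effect at p17 exceeded that at p14 by 1.06 (standard error 0.26, adjusted p = 0.0319), and for Junb by 1.28 (standard error 0.31, adjusted p = 0.0251). These were 2 of 10 genes called, beside 1.43% of all genes tested that were called with a higher effect and 0.147% with a lower one. The call for Fos was lost without any one of nOIR p14 mice S2, S6 and S7, nOIR p17 mouse S4, OIR p14 mouse S4 or OIR p17 mouse S3, where the adjusted p lay between 0.0505 and 0.0693, and over 14 alternatives it lay between 0.0107 and 0.142. The call for Junb was lost without OIR p14 mouse S2 (adjusted p = 0.0519), and 14 alternatives gave between 0.00223 and 0.0433. Egr1 had a difference of 1.26 (standard error 0.40) that missed the threshold with adjusted p = 0.136, although Egr1 was called at p17 only. For Egr2 the difference was -1.40 (standard error 0.80, adjusted p = 0.57), the lowest of the 10 genes. The remaining 6 genes had differences between -0.45 (Jund) and 1.25 (Fosb), and none of them passed.

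Within the controls, none of the 10 genes was called between p14 and p17 by limma, edgeR or DESeq2. At an unadjusted limma p under 0.05 there was 1, Egr1, with -0.76 on the log2 scale (adjusted p = 0.45). Of all genes tested, 0.158% were called higher and 0.158% lower with age in nOIR mice, which were 43 and 43 genes, or 39 and 79 when each mouse was rescaled to the same total. Within OIR mice, Fos rose from p14 to p17 by 0.78 (standard error 0.18, adjusted p = 0.00646) and Junb by 1.00 (standard error 0.21, adjusted p = 0.00289), which again were 2 of 10 genes, beside 4.11% of all genes tested called higher and 1.81% called lower. These comparisons share mice with those above. Fosl2 had a value of 0.79 in OIR mice that missed the threshold (adjusted p = 0.0908) and passed by DESeq2 (0.0367) and without OIR p17 mouse S4 (0.0323), while 15 alternatives gave 0.0367 to 0.221. Egr2 had a value of -1.08 (adjusted p = 0.299).

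Genes around these factors were read from 5 lists that share some members. The shares of all genes tested to set beside their counts are 3.18% higher and 2.91% lower at p14, and 7.39% and 5.12% at p17. Of 36 other immediate early genes, 10 were higher and 1 lower at p14, and 20 were higher and 2 lower at p17, with a median log2 fold change of 0.25 and 0.60. The genes with the smallest adjusted p were Gadd45b, a stress sensor that rose by 2.72 and 2.55 at p14 and p17, and Ccn2, a matricellular protein gene that rose by 0.75 and 1.77. Ccn1, a relative of Ccn2, rose by 1.06 and 2.39, Nr4a1, an orphan nuclear receptor gene, by 0.87 and 1.82, and Klf10 by 0.66 and 0.68. Dusp4, a phosphatase gene for MAP kinases, fell by 0.66 at p14 (adjusted p = 0.0112), and Gem and Nr4a2 fell by 0.38 and 0.48 at p17 (adjusted p = 0.00286 and 0.00584). Standard errors of these genes ranged from 0.088 to 0.29. Of the other members of the Egr family, Egr3 rose by 1.88 at p14 (adjusted p = 0.0313) and 2.65 at p17 (0.000297) and Egr4 by 2.60 at p17 (adjusted p = 0.000188). Egr3 and Egr4 were chosen for naming after their values were seen.

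Of 16 other basic leucine zipper partners of AP-1, 2 were higher at p14 and 3 at p17 and 0 were lower, with medians of 0.033 and 0.19. Creb5 rose by 1.33 and 1.51 (standard errors 0.29 and 0.27) and Mafk, a small Maf protein gene, by 0.61 and 0.78 (standard errors 0.18 and 0.17). The third gene at p17 was Batf, a partner of Jun proteins in lymphocytes, named after its values were seen, which rose by 2.45 (adjusted p = 0.00109). Batf was near the floor, with 0 to 2.7 normalized reads in nOIR p17 mice and 1.56 to 43.25 in OIR p17 mice (median 9.53). The lowest OIR mouse lay within the range of the controls.

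Of 19 genes of kinases and serum response factors that act upstream of immediate early genes, 1 was higher and 1 lower at p14, and 2 were higher and 2 lower at p17, with medians of -0.012 and 0.0021, which is near the shares over all genes tested. Elk3, a partner of serum response factor known from endothelium, rose by 0.70 and 1.54 (standard errors 0.17 and 0.15). Rps6ka1, a ribosomal S6 kinase gene, rose by 0.45 at p17 (adjusted p = 0.0107). Mapk10, the neuronal JNK gene, fell by 0.50 and 0.44 (adjusted p = 0.000143 and 9.2e-05).

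Genes that restrain the response were read from a list of 8 Egr co-repressors and negative regulators. In this list 1 gene was higher at p14 and 4 at p17, and 0 were lower. Nab2, a co-repressor that Egr proteins induce, rose by 1.07 at p14 (standard error 0.20, adjusted p = 0.000909) and by 1.93 at p17 (standard error 0.19, adjusted p = 8.58e-09). Its normalized reads were 85.2 to 120.1 in nOIR p14 mice and 146 to 328 in OIR p14 mice, and 94.1 to 187 and 353 to 645 at p17, so that the groups did not overlap at either age. Zfp36, which encodes a protein that destabilizes mRNA with AU-rich elements, rose by 1.20 at p17 (standard error 0.18, adjusted p = 1.56e-05) and Dusp6, a phosphatase gene for MAP kinases, by 0.51 (standard error 0.10, adjusted p = 0.00072). The fourth gene, Dusp1, was named after its values were seen and rose by 0.51 at p17 (adjusted p = 0.00164). Of the genes commonly described as AP-1 targets, 9 of 16 were higher and 1 lower at p14, and 12 were higher and 1 lower at p17, with medians of 1.08 and 2.27. In this list 5 genes (Plau, Mmp3, Mmp10, Ccl2 and Sprr1a) averaged under 1 normalized read in nOIR mice and passed the filter through the OIR mice alone. Without them, 8 of 11 were higher and 1 lower at p14, and 9 were higher and 1 lower at p17, with medians of 1.14 and 1.95. Timp1, an inhibitor of matrix metalloproteinases, rose by 5.90 at p14, from at most 10.47 normalized reads in nOIR mice to at least 106 in OIR mice. The chemokine gene Ccl2 had at most 4.38 normalized reads in nOIR mice and at least 62.5 in OIR mice at p14, and at most 1.1 and at least 7.78 at p17, and its fitted fold change is set by the pseudocount. Vim, an intermediate filament gene of glia and mesenchyme, rose by 1.14 and 1.46, and Hmox1 by 4.10 at p17. Mmp9 was the gene that fell, by 0.46 at p14 (adjusted p = 0.00383) and 0.37 at p17 (0.00662). These genes are described as targets in other tissues, and binding of AP-1 was not measured here.

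**Figure D3:**
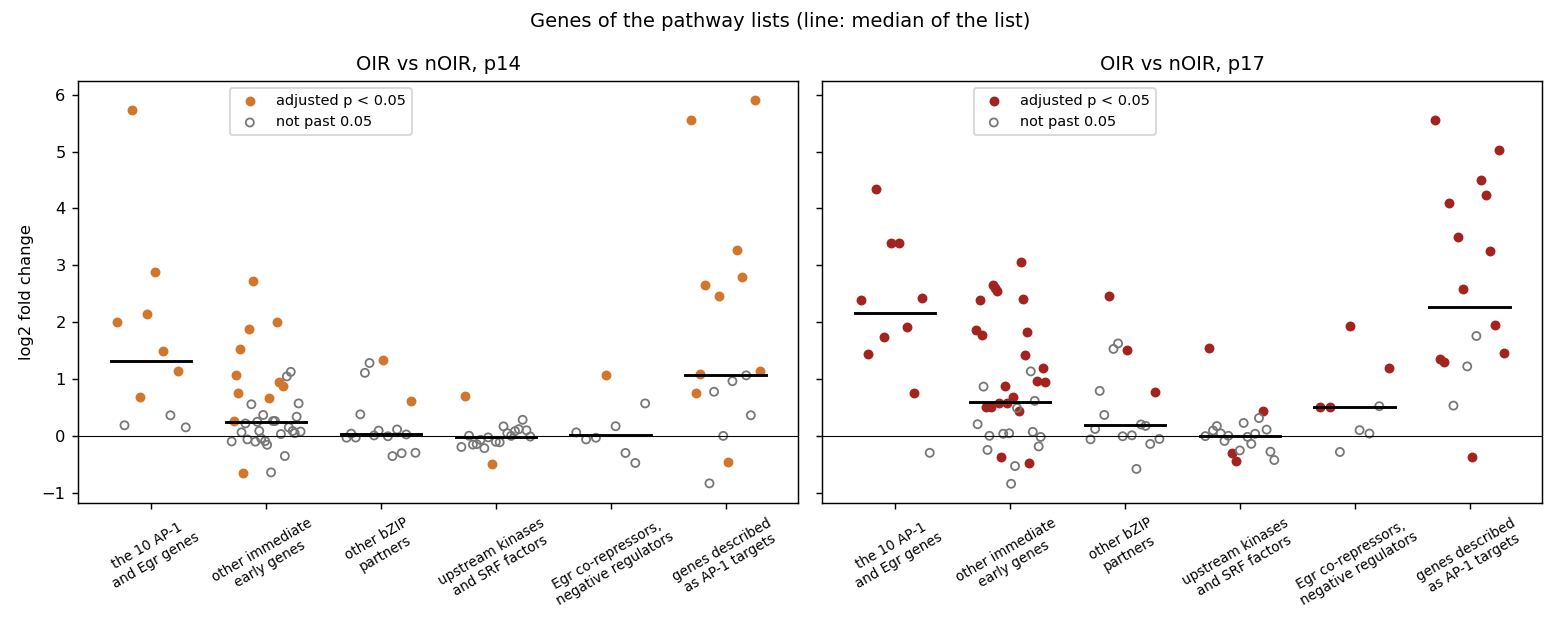
Log2 fold changes of OIR against nOIR mice at p14 (left) and p17 (right) for the 10 genes and 5 lists of related genes, with 1 point per gene, filled where the adjusted p was under 0.05. Black lines mark the medians, which were 1.32 and 2.16 for the 10 genes and stood near 0 for the upstream kinases and serum response factors.

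Individual mice were not alike in these genes. Among OIR p14 mice, S5 was highest in 8 of the 10 genes, and S1 lowest in 5 and S6 in 3. Among OIR p17 mice, S3 was highest in 8 of the 10 genes and S1 lowest in 5, and in Fosb S3 was lowest while S7 and S8 were highest. In mouse S6, the lowest of OIR p14 in Fos, Fosb and Egr1, Egr2 still reached 144 normalized reads and Atf3 502. Without OIR p17 mouse S3 the fold changes at p17 kept their calls in all 9 genes, as they did without any other single mouse. Mouse S3 also had the highest summed reads in its group for reactive glia, mural and erythroid marker genes (9866, 10525 and 13336 normalized reads). It ranked 7 of 8 for microglia, bipolar and amacrine cell markers and 8 of 8 for the list of other leukocytes. Mouse S5 of OIR p14 ranked 2 of 6 for reactive glia markers and 6 of 6 for erythroid markers. For reactive glia markers, S1 ranked 1 of 6 in OIR p14 and 8 of 8 in OIR p17. The part of these markers in the levels of the 10 genes was not tested.

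To describe which genes moved together between mice of 1 group, group means were subtracted and 45 pairs were correlated over the 26 mice. Pearson's r was above 0 in 41 of the 45 pairs, with a median of 0.27, and 6 pairs passed an adjusted p of 0.05 in 100000 permutations within groups. These counts include the pairs of Fosl1. No such count over pairs of other genes stands beside them, so that they cannot be called particular to the family. Fos and Egr1 had r = 0.685 (Spearman's rho 0.644, permutation p = 0.00182 and 0.0011, adjusted p = 0.0321 and 0.045), and r was 0.488 without the 2 mice farthest from the median of Fos. Junb and Egr2 had r = 0.501 (rho 0.581, permutation p = 0.00268 and 0.002, adjusted p = 0.0321 and 0.045, r = 0.433 without the 2 farthest mice). These were the 2 pairs that also passed by rank. Junb and Atf3 had r = 0.68 (rho 0.432, permutation p = 0.00285 and 0.0424, adjusted p = 0.0321 and 0.212), which fell to 0.351 without the 2 farthest mice and so rests in part on those mice. Jun and Junb had r = 0.676 (rho 0.574, permutation p = 0.00063 and 0.00618, adjusted p = 0.0283 and 0.0927, r = 0.521 without 2 mice). Fosl1 had r = 0.688 with Jun (rho 0.421, permutation p = 0.00443 and 0.0495, adjusted p = 0.0332 and 0.223) and 0.686 with Junb (rho 0.346, permutation p = 0.00372 and 0.13, adjusted p = 0.0332 and 0.35). Without the 2 farthest mice these fell to 0.351 and 0.429, so that both rest on those mice. Fosl1 had 0 reads in every nOIR p17 mouse and passed the filter through the OIR mice alone. These 2 of the 6 pairs that passed are therefore no support. Egr1 and Egr2 had r = 0.113 (rho 0.025, permutation p = 0.588 and 0.906, adjusted p = 0.735 and 0.952).

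In some mice GC-rich genes deviated together from the mean of the group, and some of the 10 genes are GC-rich. Whether this is technical was not tested. A GC index per mouse was formed as the mean log2 deviation of 1417 genes with a GC content of at least 58.2% minus that of 1419 genes with at most 42.31%. It was lowest in OIR p14 mouse S1 (-0.65 from the mean of its group) and OIR p17 mouse S1 (-0.42), which was also the mouse with the fewest reads. The transcripts of Jund have a median GC content of 67.15%, those of Junb 62.69% and those of Fosl1 61.09%, and the other genes of the family lie between 50.87% (Atf3) and 55.98% (Fosb). Over the 26 mice, with group means subtracted, the index had r = 0.738 with Jun, 0.721 with Fosl1 and 0.669 with Junb, and -0.141 with Fos and 0.096 with Egr1, given as a description. After the index was regressed out, r was 0.709 for Fos with Egr1, 0.758 for Junb with Atf3 and 0.46 for Junb with Egr2, but 0.363 for Jun with Junb, 0.332 for Fosl1 with Jun and 0.395 for Fosl1 with Junb. With the index as a covariate, the log2 fold changes at p17 were 0.61 for Jun and 2.19 for Junb, both called, and 2.89 for Fosl1, whose fitted value depends on the pseudocount. Jun was also called at p14 with 0.39 (adjusted p = 0.00805). Fos and Egr1 had 1.79 and 1.40 at p17 in that fit.

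**Figure D4:**
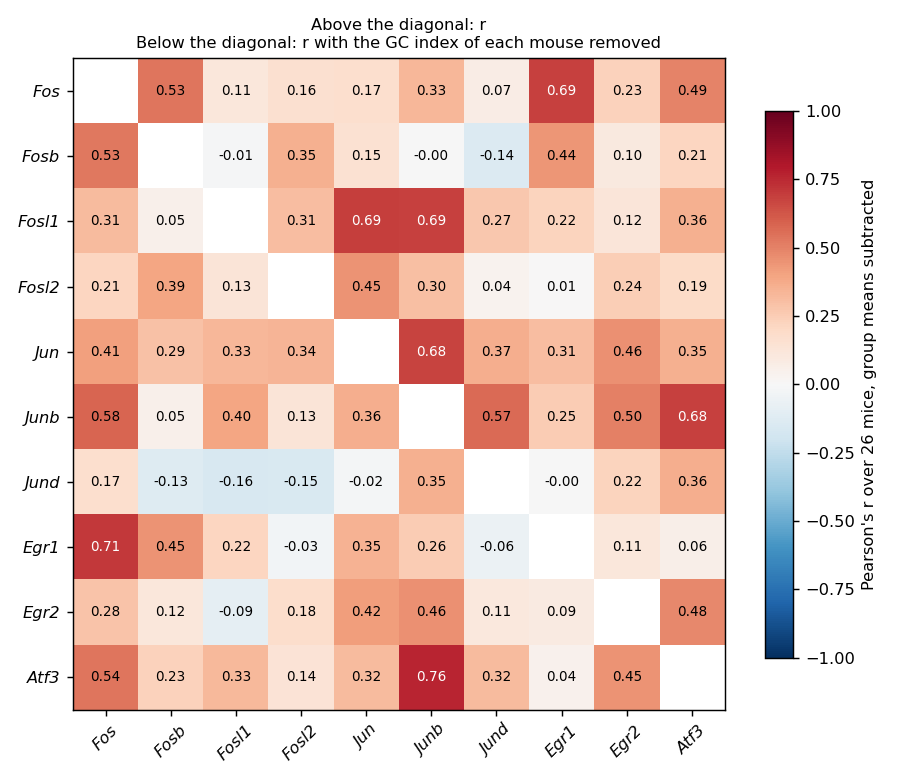
Pearson's r between the genes over 26 mice after group means were subtracted, above the diagonal as measured and below it with the GC index of each mouse removed. Fos with Egr1 (0.685 and 0.709) and Junb with Atf3 (0.68 and 0.758) stay high on both sides, whereas Jun with Junb goes from 0.676 to 0.363. Without the 2 mice farthest from the median of the first gene, r as measured was 0.488, 0.351 and 0.521 for these pairs.

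The spread of Jund among OIR p17 mice went along with that of other genes of very high GC content. The 70 genes outside the family with a GC content of at least 65.03% had a median of 0.709 and 0.774 times the mean of the group in OIR p17 mice S7 and S8, the mice lowest in Jund, and 1.416 times in mouse S3, the highest in Jund. Without S7 and S8 the log2 fold change of Jund at p17 was 0.10 (adjusted p = 0.847). At p14 the lowest Jund was that of OIR mouse S1 with 479 normalized reads, where the same genes had 0.69 times the mean of the group. With the GC index as a covariate, Jund had -0.54 at p17 (adjusted p = 0.199) and 0.20 at p14 (adjusted p = 0.796), so that the value at p17 lay further from 0 than without it. The GC index had r = 0.51 with Jund over the 26 mice, and in S8 it lay 0.20 above the mean of the group, unlike the 70 genes of highest GC content. In GENCODE M21, Jund shares 877 exonic bases with the antisense gene Gm11175, Junb 173 with Prdx2 and Jun 232 with the antisense gene Junos. Without strand, default counting assigns reads of these stretches to neither gene, so that they would be missing from the counts.

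**Figure D5:**
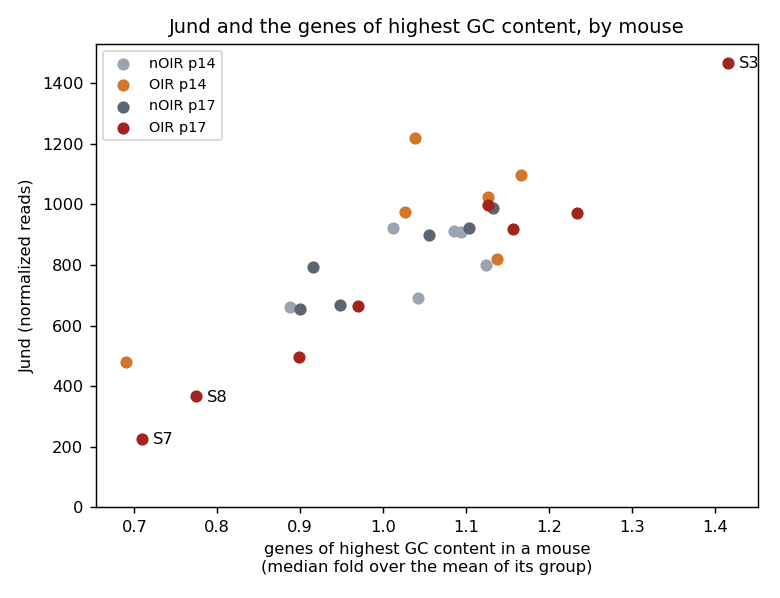
Normalized reads of Jund in each of the 26 mice (vertical axis) against the median of the 70 genes of highest GC content in that mouse, as a fold of the mean of its group (horizontal axis), coloured by group. OIR p17 mice S7 and S8 are lowest on both axes within their group and S3 is highest on both.

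The levels of cell type markers also differed between the groups, and whether cell numbers or RNA per cell differed was not tested. The 3 genes listed for reactive glia were Gfap, Lcn2 and Edn2, of which Edn2 is not specific to glia. All 3 were higher at both ages. They summed to 500 to 1274 normalized reads in nOIR p14 mice and 2565 to 9952 in OIR p14 mice, and to 459 to 902 and 2394 to 9866 at p17. Mural cell markers (3 genes) summed to 2666 to 3286 and 1281 to 2736 at p14, with 0 higher and 1 lower, and to 2276 to 3034 and 7331 to 10525 at p17, with 3 higher. Microglia markers were called in 0 of 4 genes at p14 and 3 of 4 at p17, with sums of 750 to 986 in nOIR p17 and 1419 to 2051 in OIR p17 mice. Genes listed for other leukocytes were called in 0 of 3 genes at p14 and 2 of 3 at p17, with sums of 21.1 to 70.1 and 83.6 to 140.9 at p17. Their means in OIR p17 mice were 68.05 for Ptprc, 34.42 for Itgam, 7.62 for S100a8 and 0.31 for Cd3e. Microglia also express Ptprc and Itgam, so that this list does not tell other leukocytes from microglia. Astrocyte markers were called in 0 of 2 genes at p14 and 1 of 2 at p17. Endothelial markers were higher in 1 and lower in 1 of 4 genes at p14 and higher in 3 of 4 at p17, with sums of 5762 to 7722 and 7361 to 10519 at p17. Erythroid markers were called in 0 of 3 genes at p14 and 3 of 3 at p17, with sums of 159.5 to 911 and 980.0 to 13336 at p17. Müller glia markers were lower in 3 of 4 genes at both ages. Bipolar cell markers were lower in 1 of 3 genes at p14 and 3 of 3 at p17, with sums of 19587 to 24250 in nOIR p17 and 11990 to 18068 in OIR p17 mice. Amacrine cell markers were lower in 2 of 3 genes at both ages, with sums of 12099 to 14003 and 8492 to 10668 at p14 and 13609 to 16269 and 8916 to 10477 at p17, and ganglion cell markers were lower in 1 of 3 at both ages. Rod markers, which define the tissue, were lower in 1 of 5 genes at p14 and 2 of 5 at p17, with sums of 1104906 to 1356133 and 841209 to 1159956 at p14 and of 1184689 to 1554100 and 987622 to 1546513 at p17. Lens markers summed to 4.4 to 26977 with 0 of 4 genes called at either age. Which cells carried the RNA of the 10 genes was not measured in whole retina, and the part of these cell types in their levels was not tested.

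The genes outside the family whose levels followed Fos, Egr1 and Atf3 most closely between mice were sought among the 18995 genes that averaged 10 or more normalized reads, over the 26 mice with group means subtracted. For Atf3 these were Sec22c (r = 0.818), Pxylp1 (0.813), Gadd45b (0.764), Lrrfip1 (0.738) and Cebpd (0.72). For Egr1 they were Rapsn (0.736), 1300017J02Rik (0.715), A630052C17Rik (0.666), Htra2 (0.66) and Inca1 (0.65), and for Fos Il4 (0.749), Gm8318 (0.704), Gm12346 (0.701), Mphosph6 (0.69) and Gm7069 (0.67). These mice share library preparation and depth, and the values are the highest of many, so they are given as a description.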

How the data were processed

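Whole retinas of 27 mice were sequenced by the authors with 1 library per mouse (SMARTer v4 and Nextera XT, which do not mark strand). Reads were mapped by the authors to Gencode M28 with STAR 2.7.8a and counted with featureCounts 2.0.1 at default settings. The deposited signal holds normalized reads, that is, counts that the authors divided by 1 DESeq2 (version 1.34) size factor per mouse. The deposited table also holds the authors' log2 fold changes, adjusted p-values and group means, none of which was used.

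Normalized reads were set on the log2(value + 1) scale, and 27137 of 40129 genes with a mean of at least 1 were tested with limma 3.58.1 (R 4.3.3, trend) in 1 fit of the 4 groups without nOIR p14 mouse S4. P-values were adjusted by Benjamini-Hochberg over all of these genes, and a gene was called at an adjusted p under 0.05. Whole reads were recovered from the step of each mouse (100% of values within 0.01 of a whole number), and edgeR 4.0.16 and DESeq2 1.42.0 on them were alternatives. EdgeR called 865 genes higher and 697 lower at p14, and 2050 and 1190 at p17. PCR copies were not removed, so counting intervals and floors cover counting error only. Exact permutation tests and correlations were computed in scipy 1.17.1 (Python 3.11.15, pandas 2.3.3, numpy 2.4.6). GC content and exon lengths came from GENCODE M21 and promoter windows from RefSeq (GRCm38.p6), which are not the build of the counts.

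The 10 genes, the 5 lists and the markers were chosen with earlier results of these data known. Named from each list were up to 3 higher and 3 lower genes with the smallest adjusted p and a mean of at least 10 normalized reads. One gene that this rule names is not reported here. Alternatives were other pseudocounts (0.1 and 10), filters, scalings and thresholds, S4 included, a replicate block, Cryaa as a covariate, a fit on the compared groups only and leaving out each mouse in turn. The GC index as a covariate and the fits without mice S1, or without OIR p17 S7 and S8, were added after seeing the data.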

Additional observations from a re-analysis of the deposited data

Results flagged for a closer look

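In 5 of 39 groups of 1 gene, a single mouse lay far from the others of its group by Dixon's test on normalized reads. The rate of about 1 in 20 by chance holds for independent, normally distributed values. Normalized reads are not so distributed and the 39 groups share mice, so that the count is a description only. No such count over all genes stands beside it. These were nOIR p17 mouse S4 with 591 normalized reads of Fos, below the other 5 mice, OIR p17 mouse S3 with 3967 of Fos and with 1657 of Atf3, OIR p14 mouse S5 with 117 of Fosb, and nOIR p17 mouse S2 with 20.4 of Egr2. Apart from S4, each was the highest of its group.

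The OIR effect differed between p17 and p14 by a test of the difference (limma, adjusted p under 0.05) in 7 of the 32 genes looked at, which are the 10 genes and the named genes of the lists, beside 1.43% of all genes tested with a higher effect at p17 and 0.147% with a lower one. The list genes were named for their small adjusted p at p14 or p17 in the same fit, so that their count is a description only. The difference was 1.06 for Fos and 1.28 for Junb on the log2 scale, and 1.03 for Ccn2, 0.95 for Nr4a1, 1.33 for Ccn1 and 0.57 for Dusp6. It was -0.63 for Gem. Dusp6 was thus higher in OIR mice at p17 and not called at p14, and Gem was lower at p17 and not called at p14.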

How the results depend on the processing

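Of the 10 genes, the 9 calls at p17 held under all alternatives, apart from Fosl1 under the stricter filter on low values, where it was not tested. The number of the 10 genes called stayed within 1.5 times of its value in every comparison except the difference between the ages. There, 2 genes were called, and 1 with no filter on low values, with nOIR p14 mouse S4 included, with the replicate block or without OIR p17 mice S7 and S8, 0 at an adjusted p under 0.01, and 1 to 2 when each mouse was left out in turn. The cause was not tested, except that a smaller threshold calls fewer genes by construction. At p14, 5 to 7 genes were called when each mouse was left out. The mice of 1 number are not paired by the labels. Over 34 pairs of mice with the same number, the correlation of their deviations ranged from -0.233 to 0.33 (median 0.014, other pairs -0.0033), and 7 of 26 mice correlated best with a mouse of their own number. With the replicate block, Jun was called at p14 (0.39, adjusted p = 0.0429), Fos was lost from the difference (0.94, adjusted p = 0.142), 255 instead of 389 genes in all were called higher in the difference and 14 instead of 40 lower. Directions turned only for values that were not called. Jund was -0.025 at p14 with the replicate block and 0.10 at p17 without S7 and S8. Between nOIR ages, Fosb was 0.054 with a pseudocount of 10, 0.21 with the replicate block, 0.25 by edgeR and 0.24 by DESeq2, and Jund was -0.17 with the replicate block, -0.040 with equal totals and -0.021 with Cryaa as a covariate. Between OIR ages, Fosl1 was -0.029 with the replicate block, -0.057 with Cryaa as a covariate, -0.0075 without S7 and S8 and -0.29 with the GC index, and its difference between the effects was -0.11 with the GC index. When each mouse was left out, the value between nOIR ages ranged from -0.35 to 0.46 for Fosb, -0.054 to 0.066 for Jund, -0.17 to 0.72 for Egr2 and -0.26 to 0.020 for Atf3, and that of Fosl1 between OIR ages from -0.25 to 0.47. Depth limits Fosl1, Fosb and Egr2 in controls, where a mouse had 0 to 18 reads. Over all genes, DESeq2 called 597 instead of 389 higher and 93 instead of 40 lower in the difference, and 109 and 127 instead of 43 and 43 between nOIR ages. A fit on the compared groups only called 114 and 90 between nOIR ages, and 211 instead of 491 lower between OIR ages, where the replicate block called 298. The block called 27 instead of 43 lower between nOIR ages, and the GC index left 26 instead of 40 lower in the difference. At an adjusted p under 0.01, 469 and 379 genes were called at p14, 1511 and 732 at p17, 209 and 8 in the difference, 21 and 10 between nOIR ages and 671 and 169 between OIR ages. Fits without OIR p14 S1 and OIR p17 S1 gave Fos at p14 0.60 (adjusted p = 0.075) and Fosb 2.04 (0.0626).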
